A study of Mus musculus with 2 samples.

Results

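The replication-dependent histone genes encode the core histones H2A, H2B, H3 and H4, around which DNA is wound, and the linker histone H1, which binds the DNA between them, and supply them when DNA is copied. They were taken as every gene whose symbol begins Hist1h, Hist2h, Hist3h or Hist4h and that had at least 5 unique molecular identifiers (UMIs, tags that count each captured RNA molecule once) over all cell barcodes. Of the 67 genes with such a symbol among 32285 genes in the deposited matrix, 61 passed. They fell into 5 H1, 15 H2A, 16 H2B, 12 H3 and 13 H4 genes, with 49 on chromosome 13, 9 on chromosome 3, 2 on chromosome 11 and 1 on chromosome 6. Just inside the limit were Hist1h2ao with 8 UMIs and Hist1h3h with 10. Just outside it were Hist1h2ah and Hist1h1t with 2 UMIs each and Hist1h2bq with 1, while Hist2h2aa2, Hist1h2ba and Hist1h2aa had 0.

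Single cells from adult stem cell-derived epithelial organoids of mice were measured, labelled untreated. The study's methods describe adult mice, wild-type C57BL/6 females and reporter strains among them, and do not name the strain used for these organoids. Esophageal organoids (tag Bar8, squamous epithelium) were grown without WNT3A and R-spondin1 conditioned media and with forskolin, whereas organoids of the stomach corpus (tag Bar11, columnar epithelium) were grown with both conditioned media and gastrin. Both media contained EGF, noggin, FGF-10, nicotinamide, N-acetylcysteine, an inhibitor of the TGF-β receptor kinase and a ROCK inhibitor. Cells of several mice were combined under 1 tag per tissue and both tags were read in 1 run, so each group was 1 sample, and tissue and medium cannot be told apart. No test between groups was possible. The intervals below are 95% intervals of counting error only (exact Poisson for levels, exact conditional binomial for ratios, Clopper-Pearson for shares). They do not cover the spread between mice, and those of levels and ratios do not cover the spread between cells.

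Most animal histone mRNAs end in a short hairpin, the histone stem-loop, and not in a poly(A) tail. They are made mainly in S phase, when DNA is copied, are bound at the hairpin by SLBP and are degraded when replication ends. Some of these genes also give polyadenylated transcripts, which have been described in cells that have left the cell cycle. The library kit primed cDNA from poly(A), so the values below count transcripts, or internal A-rich stretches, that this priming could reach, and not all histone mRNA.

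Hairpins and transcript ends are shown first because the levels are later set against the end of the annotated transcript. Each window is read 5′ to 3′ on the transcript strand, from GENCODE M21 transcripts on GRCm38, with the 16 bases of the stem-loop in capitals.
Hist1h1c (chr13:23739507-23739532, + strand): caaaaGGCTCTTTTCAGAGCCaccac
Hist1h2ae (chr13:23570663-23570688, - strand): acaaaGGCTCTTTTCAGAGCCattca
Hist1h2ap (chr13:21833026-21833049, - strand): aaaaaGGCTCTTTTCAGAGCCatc
Hist3h2a (chr11:58955167-58955192, + strand): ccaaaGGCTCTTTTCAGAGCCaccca
Hist1h4d (chr13:23581945-23581970, + strand): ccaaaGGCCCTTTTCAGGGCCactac
Hist1h4i (chr13:22040961-22040986, - strand): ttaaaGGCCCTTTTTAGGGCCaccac
The hairpin was found after the stop codon in 44 of the 61 genes (72.1%), against 57 of 58725 other protein-coding transcripts (0.0971%) with a match anywhere. It lay 21 to 58 bases after the stop codon. Of the genes without one, 11 had annotated transcripts that ended at the stop codon, Hist1h1b among them. Those of Hist1h2af, Hist2h3b and Hist1h1a ended 1, 37 and 48 bases after it. A hairpin past these annotated ends could not be found. It occurred in 8 distinct sequences, the most frequent of them in 25 genes. The left arm was GGCTCT in all 32 H1, H2A, H2B and H3 genes with a hairpin. In the 12 H4 genes with one, it was GGCCCT in 10 and GGTCCT in 2.

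Some annotated transcripts ran on past the hairpin to a poly(A) signal. AATAAA on the transcript strand was found in the last 50 bases of 12 histone genes (19.7%), and in 40.6% of the other protein-coding transcripts. Both elements were found in 10 histone genes, for Hist1h2bp in separate transcripts. These 3 windows show AATAAA in capitals close to the transcript end.
Hist1h1c (chr13:23740338-23740367, + strand): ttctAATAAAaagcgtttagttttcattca
Hist1h2ae (chr13:23570519-23570548, - strand): ctccAATAAAtgggtcaatttttttcagat
Hist3h2a (chr11:58956793-58956822, + strand): gcccAATAAAataagagtacgtgtataaca
The annotated transcript of Hist1h1c ended 840 bases after its hairpin and that of Hist3h2a 1643 bases after it, whereas that of Hist1h2ap ended 3 bases after it. Hist1h2bc had neither element. Its transcript had 2 exons and ran 742 bases past the stop codon, while 57 of the 61 genes had 1 exon.

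Promoters are shown for 4 genes whose levels are described below, to set genes of one class or one pattern side by side. The 100 bases before the annotated start are given from RefSeq on GRCm38.p6, with matches to the CCAAT box, the TATA box (TATAAA) and the octamer (ATTTGCAT) on either strand in capitals.
Hist1h1b (chr13:21780626-21780725, - strand): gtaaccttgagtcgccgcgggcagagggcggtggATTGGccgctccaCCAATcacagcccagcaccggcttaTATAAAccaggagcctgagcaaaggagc
Hist1h1c (chr13:23738707-23738806, + strand): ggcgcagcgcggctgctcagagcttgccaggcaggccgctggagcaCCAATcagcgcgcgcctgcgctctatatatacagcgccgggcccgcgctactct
Hist1h2bb (chr13:23746634-23746733, + strand): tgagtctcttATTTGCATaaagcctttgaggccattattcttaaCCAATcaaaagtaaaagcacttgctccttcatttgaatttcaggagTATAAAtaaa
Hist1h4i (chr13:22041363-22041462, - strand): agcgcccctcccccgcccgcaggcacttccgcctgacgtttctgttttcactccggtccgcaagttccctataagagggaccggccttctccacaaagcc
A promoter was matched by symbol or identifier for 55 of the 61 genes, and not for Hist2h2be, Hist2h4, Hist1h2ap, Hist1h3f, Hist1h2bc and Hist1h3a. Within 250 bases before the start, CCAAT (bound by NF-Y) occurred in 44 of the 55 genes (80.0%), against 33.8% of all 32851 promoters searched. The 55 genes had 56 promoters, and a gene counted if any of its promoters had a match. CCAAT was present in all 5 H1, 14 H2A and 14 H2B genes, in 8 of 10 H3 genes and in 3 of 12 H4 genes. TATAAA, the TATA box, occurred in 27 genes (49.1%, against 12.4%). ATTTGCAT, the octamer bound by Oct-1, occurred in 11 genes (20.0%, against 1.60%), which were 5 of 14 H2A and 6 of 14 H2B genes. The H2A matches lay on the reverse strand of the gene and the H2B matches on the forward strand. Windows of divergent genes can overlap, and a match to any of these motifs there was counted for both genes. The octamer between Hist1h2ae and Hist1h2bg was such a match. These matches describe the letters of the windows and are not evidence of binding.

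The comparison used 702 cells of the esophageal tag with squamous keratins and 46 cells of the stomach tag with columnar keratins, within limits on genes, UMIs and mitochondrial reads. The squamous cells held 18456220 UMIs (median 23460 per cell) and the columnar cells 2469229 (median 59575.5), with 3.70% and 7.47% mitochondrial UMIs. No barcode was shared by the tags. Basal squamous markers summed to 4911 and 302 counts per 1000000 UMIs of the group (CPM) in squamous and columnar cells, differentiated squamous markers to 4764 and 655 CPM, and columnar markers to 674 and 7670 CPM. Fibroblast, endothelial and erythroid markers were at or near 0 in both. Immune markers summed to 30.5 and 132 CPM, with Cd3e at 0 in both groups and Ptprc at 0 and 1 UMI. The immune sum came from Lyz2, with 1 UMI in squamous and 159 in columnar cells, and Cd68, at 30.4 and 66.8 CPM, and its part in the histone values was not tested.

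Histone transcripts made up a larger share of the transcripts in squamous cells. The 61 genes summed to 1101 CPM (20321 UMIs) in squamous and 616 CPM (1520 UMIs) in columnar cells, a ratio of 1.79 (1.70 to 1.89). With Hist1h2bc and Hist1h1c set aside, the sums were 919 and 242 CPM and the ratio 3.80 (3.50 to 4.13). These genes held 11.8% and 4.68% of the histone UMIs of squamous cells, and 43.6% and 17.2% of those of columnar cells. A histone UMI was found in 627 of 702 squamous cells (89.3%) and 45 of 46 columnar cells (97.8%). The median cell was at 479 CPM in the squamous and 442 CPM in the columnar group, and the highest at 7396 and 2972 CPM, over 702 and 46 cells.

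A ratio of 2 or more was called a difference. Of the 59 histone genes with at least 10 UMIs over both groups, 34 differed with the higher level in squamous cells (57.6%, against 14.8% of the 12717 genes measured) and 3 with the higher level in columnar cells (5.08%, against 18.7%). The 3 were Hist1h2bc, Hist1h1c and Hist2h3c2, the last with an interval that held 1. The median log2 ratio was 1.80 over the 49 genes with UMIs in both groups, and 1.73 over 54 genes with 5 more at their bound, while the median of all genes was -0.11. The interval lay above 1 for 28 of the 59 genes (47.5%, against 23.5% of all genes measured) and below 1 for 2 (3.39%, against 30.9%). Only 18 histone genes reached 10 UMIs in columnar cells, 24 had 1 to 3 and 10 had 0, so most single ratios are loosely bounded.

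The H1 genes, whose products bind the linker DNA between nucleosomes, summed to 315 CPM in squamous and 153 CPM in columnar cells (ratio 2.05, 1.85 to 2.28), and 4 of 5 passed the limit with squamous cells higher. Hist1h1b, which encodes H1.5, was at 159 and 16.2 CPM, a ratio of 9.80 (7.18 to 13.7). Hist1h1d (H1.3) had a ratio of 6.72, Hist1h1a (H1.1) one of 4.79, and Hist1h1e (H1.4) was at 68.5 and 25.5 CPM (2.68, 2.08 to 3.51). Hist1h1c, which encodes H1.2, went the other way, at 51.5 CPM in squamous and 106 CPM in columnar cells, or 2.05 times higher in columnar cells (1.78 to 2.35). That call ended with TMM and RLE scaling (squamous to columnar ratios of 0.555 and 0.551) and without the UMI limit (0.585).

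The H2A genes had the highest class ratio, with 370 and 81.4 CPM (4.55, 3.95 to 5.26) and 11 of 14 measured genes past the limit, all higher in squamous cells. Hist1h2ae was at 155 and 26.7 CPM (5.80, 4.55 to 7.52) and Hist1h2ap at 121 and 21.1 CPM (5.76, 4.37 to 7.73). Hist1h2ab had 337 UMIs in squamous and 3 in columnar cells (15.0, 5.10 to 73.2). Hist1h2ai had 47 UMIs and Hist1h2an 42 in squamous cells and both had 0 in columnar cells, which made them at least 2.10-fold and 1.87-fold higher against a floor of 3 UMIs over the columnar group. Hist2h2ac, in the cluster on chromosome 3, was at 27.3 and 4.86 CPM (5.62), while Hist1h2ac had a ratio of 1.30 and an interval that held 1 (0.73 to 2.503). Hist3h2a, in the small cluster on chromosome 11, was also level between the groups at 16.2 and 18.2 CPM, and its interval held 1 (0.89, 0.65 to 1.24).

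The H2B genes summed to 214 CPM in squamous and 292 CPM in columnar cells, the only class with a ratio under 1 (0.73, 0.68 to 0.79). That sum was carried by Hist1h2bc, which was at 130 CPM in squamous and 268 CPM in columnar cells, 2.06 times higher in columnar cells (1.88 to 2.24). This call, too, ended with TMM and RLE (ratios of 0.554 and 0.549), and with equal weight for every cell the ratio was 0.701. Of the other H2B genes, 9 passed the limit in the opposite direction, among them Hist1h2bj (4.70), Hist2h2bb (5.89), Hist1h2bm (3.30) and Hist1h2bb, which had 110 UMIs in squamous cells and 1 in columnar cells. With equal weight for every cell the direction of Hist1h2bm turned (0.618) and Hist2h2bb was at 1.42. In the low-range cells described below the ratios of Hist2h2bb, Hist1h2bm and Hist1h2bb were 0.873, 0.509 and 0.291. These rest on 18 and 6, 7 and 4, and 1 and 1 UMIs in squamous and columnar cells, too few to give a direction. Hist1h2be was level (1.03, 0.60 to 1.89). With every cell thinned to 10000 UMIs, Hist1h2bc was found in 149 of 433 squamous cells (34.4%) and 31 of 44 columnar cells (70.5%), and Hist1h1b in 149 of 433 (34.4%) and 1 of 44 (2.27%). Before thinning the shares were 46.6% and 93.5% for Hist1h2bc and 38.7% and 17.4% for Hist1h1b.

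The H3 genes summed to 70.8 and 19.4 CPM (3.64, 2.73 to 4.97), with 8 of 11 measured genes past the limit toward squamous cells. Hist1h3c had 296 UMIs in squamous and 2 in columnar cells (19.8, 5.43 to 164), and Hist1h3a had 107 and 0, at least 4.77-fold higher. Hist1h3f had 140 and 2 UMIs, Hist1h3i 125 and 1, and Hist1h3e had a ratio of 2.20 (1.38 to 3.70), whereas the interval of Hist1h3d held 1 (0.81 to 3.08). The H4 genes summed to 131 and 68.8 CPM (1.90, 1.63 to 2.24), and 2 of 13 passed the limit toward squamous cells, against 14.8% of all genes measured. The median log2 ratio was -0.36 over the 9 H4 genes with UMIs in both groups. It leaves out Hist1h4b, Hist1h4f, Hist1h4n and Hist1h4m, with 18, 17, 17 and 11 UMIs in squamous and 0 in columnar cells. Hist1h4d carried the sum at 68.9 and 17.8 CPM (3.86, 2.86 to 5.35), whereas Hist1h4i was at 35.5 and 24.7 CPM (1.44, 1.11 to 1.90) and Hist1h4h at 7.59 and 10.9 CPM (0.69, 0.46 to 1.09). Hist1h4c was level too (1.16, 0.64 to 2.32). The 33 histone genes outside the rule for named genes, Hist1h3a among them, had 5 to 107 UMIs over both groups. In 27 of the 61 genes over 50% of the 50-base windows of the annotated transcripts were shared with another gene, among them Hist1h2ap (93.1%), so the split of reads between such copies is uncertain. Hist1h1b shared none and Hist1h1c 8.54%.

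**Figure D1:**
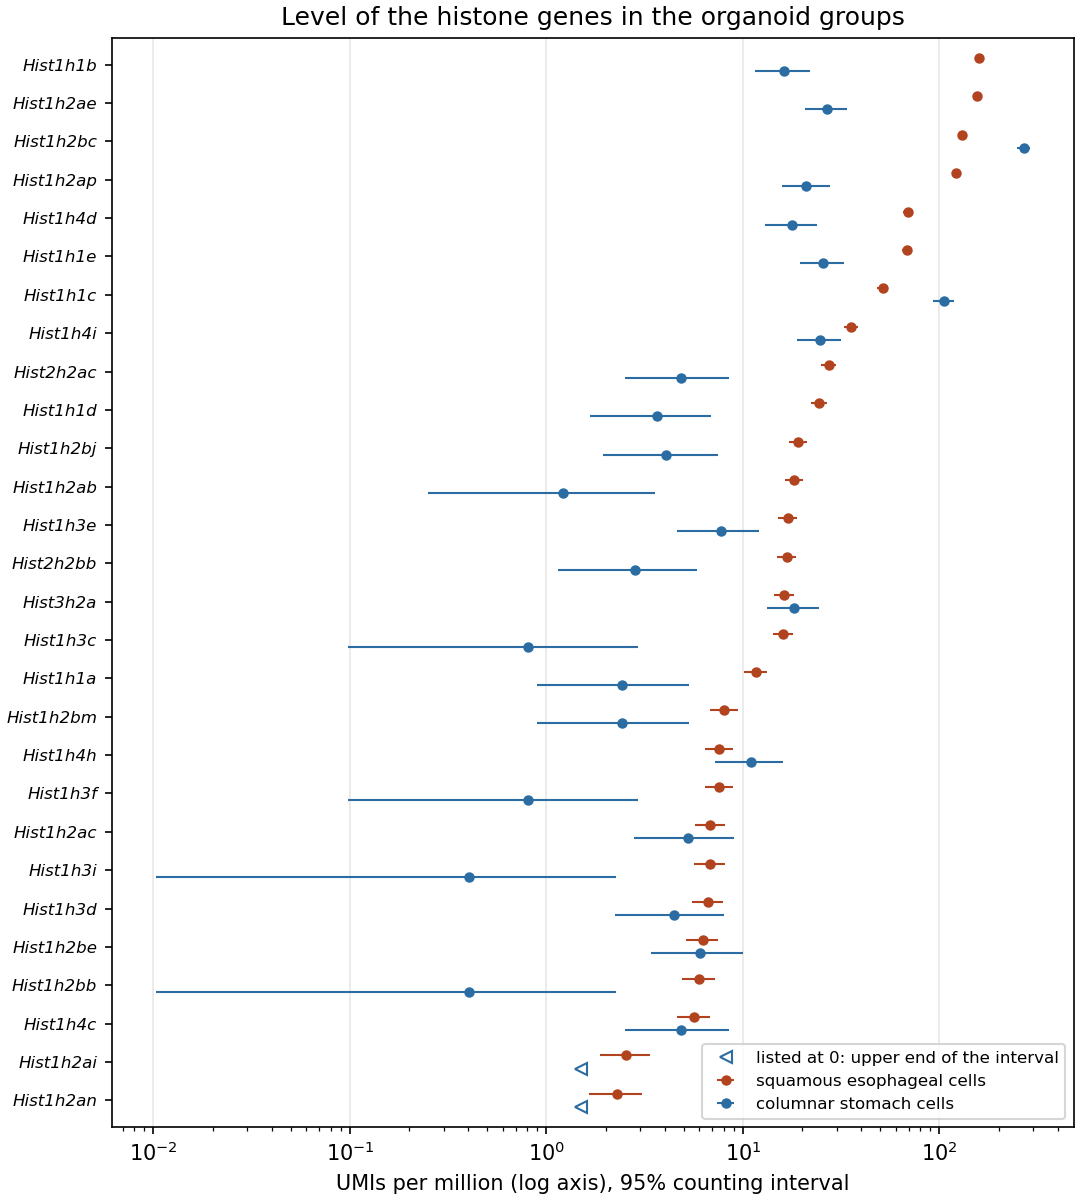
CPM (log axis) of each named histone gene in the summed squamous esophageal and columnar stomach cells, with the 95% counting interval as a bar and open triangles at its upper end for genes at 0. Hist1h1b, Hist1h2ae and Hist1h2ap sit to the right in squamous cells (159, 155 and 121 CPM, against 16.2, 26.7 and 21.1), and Hist1h2bc and Hist1h1c to the right in columnar cells.

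In columnar cells, few cells carried most UMIs of Hist1h1b, Hist1h2ae and Hist1h2ap. A single cell in the S range described below held 99 of the 158 UMIs of these genes (62.7%), and the next cell held 25 (15.8%). Without the cell with most UMIs of each gene in either group, the ratios of squamous to columnar cells were 21.7 for Hist1h1b, 15.8 for Hist1h2ae and 15.0 for Hist1h2ap. The upper limit of 80000 UMIs per cell also mattered. It left out 22 squamous and 41 columnar cells, and without it the ratio was 2.24 for Hist1h1b, 2.06 for Hist1h2ap, 3.32 for Hist1h2ae and 1.47 for all histone genes.

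Cell cycle genes that are no histone genes differed in the same direction. A list of 39 S phase genes summed to 1376 CPM in squamous and 643 CPM in columnar cells (24 genes past the limit toward squamous cells, 0 toward columnar cells), and a list of 54 G2/M genes to 5940 and 1867 CPM (41 and 1). Among their genes with most UMIs, the replication clamp gene Pcna had a ratio of 1.89, Hells 2.92, Rfc2 1.68 and Gmnn 2.03, and the mitotic genes Hmgb2 5.21, Ube2c 10.4, Top2a 7.0 and Tubb4b 2.05. Their part in the histone values was not tested by these sums, and histone levels among cells low in both lists are given below.

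To set the histone genes against the cell cycle, each cell with at least 10000 UMIs was thinned to 10000 and scored by the summed UMIs of the S phase and G2/M lists, which hold no histone gene of the set. Of 433 squamous cells, 114 (26.3%) had at least 12 S phase UMIs and fell in the S range, 110 (25.4%) fell in the G2/M range, which began at 55.3 UMIs, and 209 (48.3%) were low in both. A cell past both limits was placed by the list in which it ranked higher, which concerned 48 of the S-range and 52 of the G2/M-range cells, so these ranges overlap in both scores. Of 44 columnar cells, 3, 1 and 40 fell in these ranges. Cells under 10000 UMIs were left out (269 squamous and 2 columnar). The ranges are cuts of a continuous score and not cell types, and 38 of the 110 G2/M-range cells lay within 2 UMIs of the S limit. The median squamous cell held 48360.5 UMIs in the S range, 48905.5 in the G2/M range and 34577 in the low range.

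Histone transcripts were concentrated in the S and G2/M ranges of squamous cells. They summed to 1395 CPM in the S range, 1748 CPM in the G2/M range and 473 CPM in the low range, so that the S range was 2.95 times (2.83 to 3.07) and the G2/M range 3.69 times (3.55 to 3.84) the low range. Without Hist1h2bc and Hist1h1c these ratios were 8.41 (7.91 to 8.95) and 10.2. Between the S and G2/M ranges, the interval lay above 1 for Hist1h1b and Hist1h1a (3.57% of 56 measured genes, against 12.0% of 11444 genes) and below 1 for 23 (41.1%, against 13.5%).

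Between the S and the low range, 38 of 51 measured histone genes passed the limit toward the S range (74.5%, against 10.6% of 11718 genes) and 4 toward the low range (7.84%, against 6.25%). Between the G2/M and the low range the counts were 50 of 56 (89.3%, against 9.35%) and 1 (1.79%, against 6.38%). The median log2 ratio was 2.73 for S over low and 3.21 for G2/M over low, against 0.13 and 0.15 over all genes. The summed genes of each class gave S to low ratios of 4.49 for H1, 13 for H2A, 0.46 for H2B, 5.31 for H3 and 2.90 for H4, and the H2B value again rested on Hist1h2bc, since 12 of 15 measured H2B genes passed the limit toward the S range.

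Hist1h1b was at 300.6 CPM in the S range, 247 in the G2/M range and 9.63 in the low range, an S to low ratio of 31.2. It was found in 90 of 114 S-range cells, with a median of 107 and a highest cell of 1576 CPM, and in 53 of 209 low-range cells. Hist1h2ae was at 236, 295 and 8.69 CPM (27.1) and Hist1h2ap at 210, 215 and 4.55 CPM (46.3). Both H2A genes were thus at least as high in the G2/M as in the S range, and far lower in the low range. Hist1h2bb had an S to low ratio of 65.3 with 1 UMI in the low range, Hist1h2ai one of 32.7 with 1 UMI, and Hist1h2an had 0 UMIs there.

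Hist1h1d, Hist1h2ab, Hist1h3c, Hist1h3f and Hist2h2ac had S to low ratios of 13.1, 31.7, 16.5, 24.7 and 9.63. Hist1h1e and Hist1h4d had lower ones, 5.64 and 6.62. Hist1h4i had a much lower one, at 40.5, 42.2 and 27.0 CPM (1.5, 1.23 to 1.83). Hist1h1a was at 25.4, 11.1 and 2.94 CPM, and was thus higher in the S than in the G2/M range.

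The 4 genes past the limit toward the low range were Hist1h2bc, Hist1h1c, Hist3h2a and Hist3h2ba. Hist1h2bc was at 21.4 CPM in the S range, 71.2 in the G2/M range and 237 in the low range, an S to low ratio of 0.09. Without the cell with most of its UMIs in each range the ratio was 0.096, so 1 cell did not set it. Hist1h1c was at 22.8, 45.5 and 75.3 CPM (0.30). Hist3h2a was at 5.36, 22.6 and 17.4 CPM (0.31), low in the S range only. In columnar cells, with 3 S-range and 40 low-range cells, the S to low ratios were 1.76 (1.51 to 2.04) for all histone genes, 12.4 for H2A and 0.59 for H2B. One of the 3 cells held 147 of their 205 histone UMIs, and without it these ratios were 0.749 (0.565 to 0.975), 3.62 (2.11 to 5.95) and 0.223, so the direction for all histone genes rested on that cell.

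**Figure D2:**
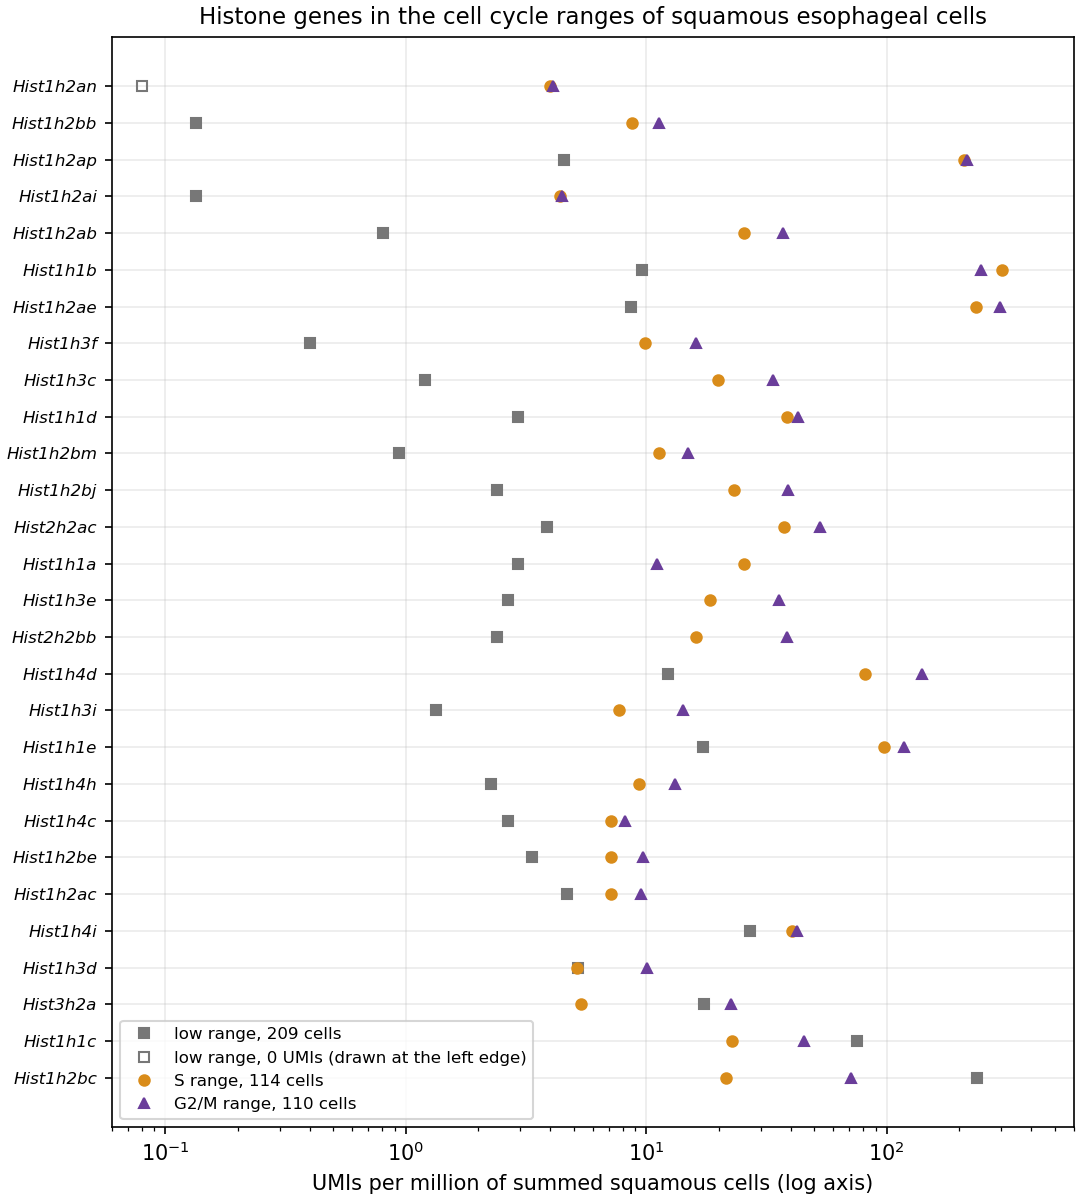
CPM (log axis) of the named histone genes in summed squamous esophageal cells of the S, G2/M and low range, ordered by the S to low ratio, with an open square at the left edge for 0 UMIs. Most genes are lowest in the low range, by 31.2 times for Hist1h1b, and Hist1h2bc and Hist1h1c at the bottom are highest there (237 and 75.3 CPM).

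The UMIs of both genes were concentrated in few low-range squamous cells. In low-range squamous cells Hist1h2bc was found in 133 of 209 cells (63.6%), with a median of 34.4 and a highest cell of 5557 CPM, and 50% of its 1776 UMIs were in 10 cells, 277 of them in 1 cell. Hist1h1c was found in 82 of the 209, and 50% of its 563 UMIs were in 4 cells, 97 of them in 1 cell. The cells with at least 10 UMIs were 46 for Hist1h2bc and 8 for Hist1h1c, and all 8 were among the 46. In low-range columnar cells Hist1h2bc was found in 37 of 40 cells (median 220 CPM) and Hist1h1c in 32 of 40 (median 81.0 CPM), with at least 10 UMIs in 21, 8 and, for both, 7 cells.

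Among low-range cells the groups were close. The histone genes summed to 473 CPM in squamous and 541 CPM in columnar cells, a ratio of 0.875 (0.819 to 0.935). Of 33 measured genes, 3 passed the limit toward squamous cells (9.09%, against 12.3% of all genes) and 4 toward columnar cells (12.1%, against 21.2%), both below the share of all genes. The 3 were Hist1h1b (6.98), Hist1h1a (3.20) and Hist1h3d (2.27), and the 4 were Hist1h4h (0.21), Hist4h4 (0.36), Hist1h3e (0.42) and Hist2h4 (0.47). Hist1h1b had 72 UMIs in squamous and 3 in columnar cells, Hist1h3d 39 and 5, and Hist1h1a 22 and 2. Of the 22 UMIs, 16 were in 1 cell. Without the highest cell of each group Hist1h1a was at 0.81 and 0.46 CPM. Hist1h1e (0.647), Hist1h4d (0.687) and Hist1h3e, all higher in squamous cells over the whole groups, were below 1 here. Hist1h3f was at 0.437 on 3 UMIs in squamous and 2 in columnar cells, under the limit of 10 for a measured gene. Hist1h2bc was at 237 CPM in squamous and 262 CPM in columnar cells and Hist1h1c at 75.3 and 107 CPM. These low-range comparisons were added after the values above had been seen.

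Hist1h2bc and Hist1h1c were then followed within the low range. The 209 low-range squamous cells were ordered by the balance of differentiated over basal squamous markers. They were divided into a basal, a middle and a differentiated set of 70, 70 and 69 cells. Histone transcripts were higher at the differentiated end, with 291 CPM in the basal and 670 CPM in the differentiated set (2.30 times, 2.11 to 2.52). Without Hist1h2bc and Hist1h1c the sums were 156 and 163 CPM (1.04, 0.91 to 1.20). Hist1h2bc was at 115, 210 and 368 CPM from the basal to the differentiated set (3.20, 2.80 to 3.67) and Hist1h1c at 19.8, 57.6 and 139 CPM (7.03, 5.18 to 9.73). Without the highest cell of each set, Hist1h2bc was at 102, 166 and 271 CPM and Hist1h1c at 17.1, 21.3 and 106 CPM, so the middle value of Hist1h1c rested largely on 1 cell. The median cell was at 27.4, 31.6 and 68.7 CPM for Hist1h2bc and at 0 CPM in every set for Hist1h1c. Hist1h1c was found in 24, 24 and 34 cells, so its sums rest on a minority of the cells. Hist1h4i was at 12.6, 20.2 and 45.5 CPM (3.60, 2.40 to 5.56), and at 11.2, 18.2 and 33.1 CPM without the highest cell of each set. It was found in 21, 28 and 27 cells, with a median cell at 0 CPM in every set. In the differentiated set 1 cell held 35 of its 124 UMIs.

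Of 22 histone genes measured in these sets, 6 passed the limit toward the differentiated set (27.3%, against 7.27% of all genes) and 7 toward the basal set (31.8%, against 15.9%). Besides Hist1h2bc, Hist1h1c and Hist1h4i, the first group held Hist1h2be (3.48, 1.12 to 14.3), Hist1h2bg (2.03, 0.46 to 12.2) and Hist1h1a, for which 16 of 19 UMIs of the differentiated set were in 1 cell. The second held Hist1h1b (0.47, 0.23 to 0.90), Hist1h2ae (0.49, 0.26 to 0.92), Hist1h3e, Hist3h2ba, Hist1h4c, Hist1h3a and Hist1h4h. Hist3h2a, higher in the low range too, was not among either (1.27, 0.84 to 1.95). The median S phase score was 4, 3 and 2 and the median G2/M score 11.5, 12 and 13 from the basal to the differentiated set, and the part of these remaining differences in the result was not tested.

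**Figure D3:**
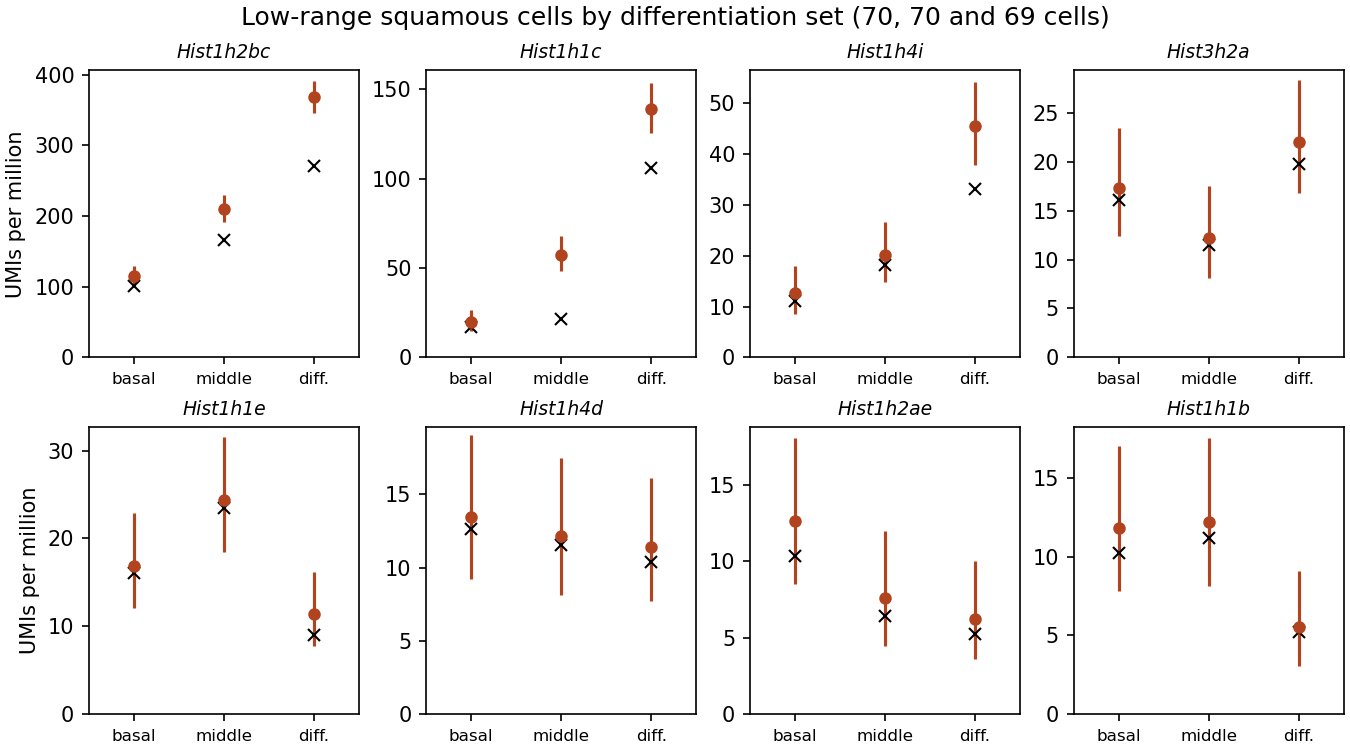
CPM of named histone genes in the basal, middle and differentiated (diff.) set of low-range squamous esophageal cells, with the 95% counting interval as bars and crosses for the level without the cell with most UMIs of that gene. Hist1h2bc goes from 115 to 368 CPM and Hist1h1c from 19.8 to 139 CPM.

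The S to low ratio was compared between classes of annotated transcript end. The limits of these classes were set after the values had been seen. The annotation had 20 genes that ended within 60 bases after the hairpin and 11 that ended at the stop codon. Another 27 were extended. They had AATAAA in the last 50 bases, ended more than 60 bases after the hairpin, or ended more than 300 bases after the stop codon. The remaining 3 were none of these. Hist1h2bp was counted as extended by AATAAA in a transcript without a hairpin, although its other transcript ended 38 bases after the hairpin. The median S to low ratio in squamous cells was 10.9 over 14 genes with a hairpin end, 9.41 over 7 ending at the stop codon and 1.89 over 25 extended genes. All 4 genes higher in the low range and all 3 higher in columnar cells were extended, with Hist1h2bc and Hist1h1c in both counts. Extended genes were 25 of the 51 measured in these ranges and 27 of the 59 measured between groups. Of the 25, 12 passed the limit toward the S range. Hist1h2bc entered the class only by the limit of 300 bases after the stop codon. The extended genes held 1336 of 1520 histone UMIs in columnar cells and 11916 of 20321 in squamous cells. Of these, Hist1h2bc and Hist1h1c held 662 and 261 in columnar cells, and 2405 and 951 in squamous cells. The columnar count thus rested largely on these genes. The overlap of the classes was wide, since the extended Hist1h2ae had a ratio of 27.1.

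**Figure D4:**
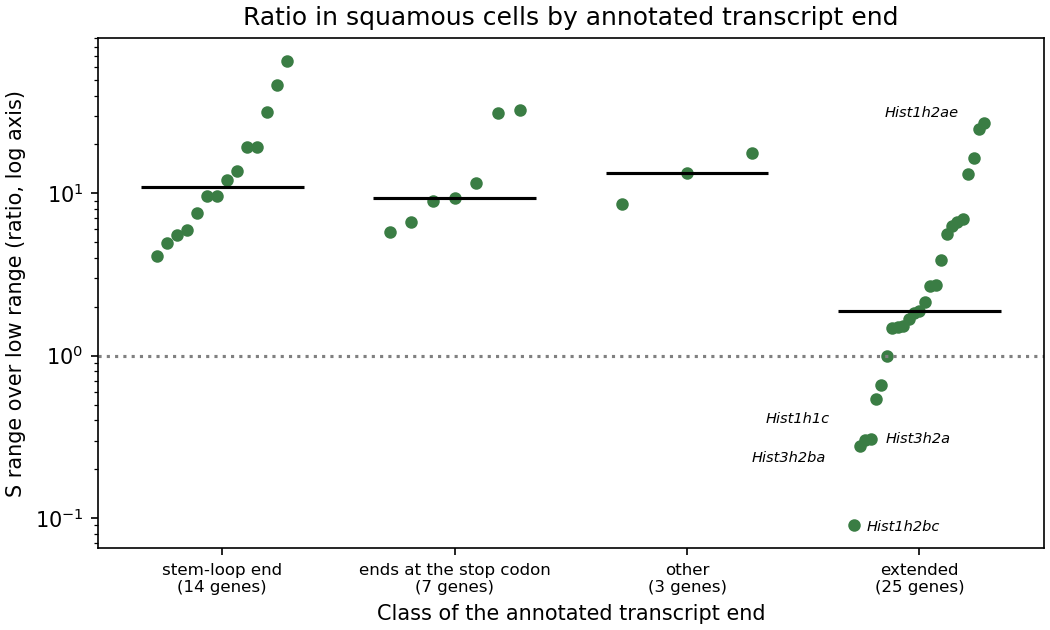
Ratio of the S to the low range in squamous esophageal cells (log axis) for each measured histone gene by the class of its annotated transcript end, with the median of each class as a bar and a dotted line at 1. The extended genes have the lowest median (1.89) and run from 0.09 for Hist1h2bc to 27.1 for Hist1h2ae. The medians of the others are 10.9, 9.41 and 13.4.

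Neighbouring genes could differ widely. Among 9 divergent pairs of an H2A and an H2B gene with starts 175 to 295 bases apart, Hist1h2ac and Hist1h2bc (250 bases apart) had S to low ratios of 1.53 (0.93 to 2.51) and 0.09 (0.074 to 0.11). Hist1h2ae and Hist1h2bg (175 bases apart) had ratios of 27.1 (21.1 to 35.4) and 1.83 (0.82 to 4.13). Hist1h2ak and Hist1h2bn (295 bases apart) were at 11.6 (4.56 to 37.7) and 9.41 (2.77 to 49.6). The last 2 ratios rest on 5 and 3 low-range UMIs, too few to tell how close the genes are.

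Genes that act on histone mRNA, on histone proteins or as replacement histones differed less between the groups. The list of 16 genes of histone mRNA processing and decay summed to 439 CPM in squamous and 387 CPM in columnar cells (1.14), and 1 gene, Casp8ap2 (3.12), passed the limit. Slbp, which encodes the hairpin-binding protein, was at 60.1 and 43.3 CPM (1.39, 1.14 to 1.71), and at 128 CPM in the S range, 45.9 in the G2/M range and 25.8 in the low range of squamous cells. Eri1, which encodes an exonuclease of the histone hairpin, had a group ratio of 1.48, Srrt 1.39 and Tut7 0.80. Slbp was thus lower in the G2/M than in the S range, where most histone genes were high. A list of 18 genes held histone chaperones and genes that act with them, such as Hat1 and Atrx. Of these, 5 passed the limit toward squamous cells, namely Asf1b (6.55), Chaf1a (2.88), Chaf1b (2.91), Nasp (2.90) and Hat1 (2.44). The list summed to a ratio of 1.38. The genes of this list with most UMIs had ratios of 1.39 for Npm1, 1.78 for Ssrp1, 1.18 for Nap1l1 and 0.82 for Atrx.

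The replication-independent and variant histones, most of which are polyadenylated and made outside S phase as well, had 11 members in the files and summed to 5468 CPM in squamous and 4744 CPM in columnar cells (1.15). H3f3a and H3f3b, which encode H3.3, had ratios of 0.91 and 1.13, H2afz, which encodes H2A.Z, 1.80, and H2afj, an H2A variant, 0.74. Those past the limit toward squamous cells were H2afx (3.24), Cenpa, the centromeric H3 (4.60), and H2afy2 with 201 and 0 UMIs, at least 8.96-fold higher. Casp8ap2, H2afx, Cenpa, H2afy2 and the 5 genes of the chaperone list are named because their values passed the limit. Between the S and low range the sums of these lists had ratios of 1.78 for mRNA processing, 1.72 for chaperones and 1.36 for variants, all below that of the histone genes (2.95).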

How the data were processed

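Single cells of esophageal and stomach organoids were tagged with lipid-linked barcodes, pooled and sequenced as 1 library made with a poly(A)-primed 3′ kit. Per the labels and the study's methods, the authors aligned reads to mm10 with Cell Ranger 3.1.0 and deposited UMI counts per gene and cell, not normalized, with a table of the tag of each cell. The esophageal tag held 919 barcodes (23778678 UMIs) and the stomach tag 180 (8047185). Cell Ranger counts uniquely placed reads, so near-identical histone copies may lose or share reads.

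With the limits the study gave for its tissue cells, barcodes passed with between 100 and 8500 detected genes, no more than 80000 UMIs and a mitochondrial share no higher than 20%, which left 765 and 90. A cell was called squamous where at least 0.75 of its UMIs of 6 keratins came from Krt5, Krt14, Krt6a and Krt13, and columnar where at most 0.25 did, with at least 5 keratin UMIs. Cells between these limits were left out. Tags were assigned to barcodes by the authors, and per the study's methods some barcodes carry a wrong tag. No doublet caller was run, so doublets of 1 cell type may remain.

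UMIs were summed per group and given as CPM. Genes under 10 UMIs in both groups together were not measured. A ratio against 0 is a bound at a floor of 3 UMIs over the group (0.163 CPM in squamous, 1.21 CPM in columnar cells). With 1 sample per group, intervals cover counting error only, and their functions were tested on simulated data. Named genes were the 25 with most UMIs among those of at least 50, the 3 on each side with the highest interval bound and the 4 with the most extreme S to low ratios, with 20 or more UMIs, and up to 4 genes of each other list by UMIs. The histone genes and all lists were chosen with earlier results of these data known. TMM and RLE scaling came from edgeR 4.0.16 (R 4.3.3). Other steps used Python 3.11.15, numpy 2.4.6, scipy 1.17.1 and pandas 2.3.3. Alternatives covered the cell limits, the keratin call, weighting, scaling, thinning, the range limits and leaving out the highest cell.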

Additional observations from a re-analysis of the deposited data

Results flagged for a closer look

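Outside the cells compared, 41 columnar stomach cells with more than 80000 UMIs (median 122552) held histone transcripts at 730.1 CPM (707 to 754), above the 616 CPM of the 46 columnar cells within the limit. In them Hist1h1b was at 91.8, Hist1h2ap at 92.6, Hist1h2bc at 231 and Hist1h1c at 59.5 CPM, and the S phase and G2/M lists summed to 1268 and 3681 CPM. They differed from the smaller columnar cells in holding more of the genes that were high in the S range. The 22 squamous esophageal cells over the same limit held 806 CPM, below the 1101 CPM of the 702 squamous cells within it. Whether the large columnar barcodes hold 1 cell or several was not tested.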

How the results depend on the processing

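No paired analysis was possible because each group was 1 sample. The summed ratio of squamous to columnar cells (1.79) was 1.54 without the cell limits, 1.47 without the UMI limit, 1.49 with equal weight for every cell, 2.04 with TMM, 2.02 with RLE, 1.90 without the highest cell of each group and 0.875 in low-range cells, an alternative chosen after seeing the data. In low-range cells 3 genes passed the limit toward squamous cells, not 34, and the median log2 ratio was -0.20 (0.88 with equal weight). The 3 genes toward columnar cells became 1 without the keratin call, with TMM and with RLE, as Hist1h2bc and Hist1h1c no longer passed. TMM and RLE shifted all log2 ratios by 0.19 and 0.18. In the same order, H1 was 1.62, 1.52, 1.51, 2.34 and 2.32, and 0.779 in low-range cells. H2A was 2.42 without the cell limits, 2.56 without the UMI limit, 3.85 with equal weight, 7.41 without the highest cells and 1.11 in low-range cells. H2B was 0.876 with equal weight, 0.833 with TMM, 0.827 with RLE and 0.902 in low-range cells. H3 was 2.54 without the UMI limit, 1.85 with equal weight and 1.08 in low-range cells, and H4 1.39 with equal weight and 0.775 in low-range cells. In low-range cells the ratio was below 1 for Hist1h1e (0.647), Hist1h4d (0.687) and Hist1h3e (0.416). There it was below 1 as well for Hist2h2bb (0.873, on 18 and 6 UMIs) and Hist1h2bm (0.509, on 7 and 4 UMIs), too few UMIs to give a direction. With equal weight for every cell the direction turned for Hist1h2bm (0.618). The low-range ratios of Hist1h3f (0.437) and Hist1h2bb (0.291) were below 1 too. They rest on 3 and 2 and on 1 and 1 UMIs, under the limit of 10 for a measured gene, and give no direction. The S to low ratio of squamous cells (2.95) was 2.77 with cells thinned further and 3.34 with stricter score limits, and that of columnar cells (1.76) was 1.22 from thinned UMIs, 1.503 with equal weight, 3.14 without the UMI limit (8 and 63 cells) and 0.749 without 1 S-range cell, the last chosen after seeing the data. The low range left out cells at or past the S or G2/M limit, while cells with lower scores above 0 stayed in it. The cause of these shifts was not tested. Single genes in columnar cells are limited by depth, since 34 of 61 had at most 3 UMIs.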

Other observations

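Cells outside both groups also held histone transcripts. The 24 columnar cells of the esophageal tag within the limits were at 772 CPM (713 to 834), with Hist1h2bc at 442 CPM, and the 21 squamous cells of the stomach tag at 325 CPM (141 to 641). The 52 cells with mixed keratins were at 963 CPM. Cells with more than 20% mitochondrial UMIs were at 1197 CPM (108 squamous esophageal) and 908 CPM (13 columnar stomach).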
